A study of Mus musculus with 4 samples.

Results

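The HOX genes are described here along their 4 genomic clusters in a pair of mouse fibroblast lines. Members were the probe sets whose platform gene symbol is 1 of 38 listed HOX genes of clusters A to D, taken in order of cluster and paralogue number. A probe set is the group of short probes on the array that together measure 1 transcript. A probe set of their own was found for 33 of the 38 genes, which gave 48 HOX probe sets of the 45037 analysed, and 11 of the genes had several. Hoxa6, Hoxb8, Hoxc11, Hoxc12 and Hoxd4 had no such probe set and have no value here. RNA came from unstimulated cells of L929, an established line from mouse connective tissue, and from unstimulated NIH3T3, an established mouse embryo line, each on 2 arrays. The submitters picked L929 for its sensitivity to necrosis and NIH3T3 for its sensitivity to apoptosis. Each condition is a line of its own, so the way of dying, the line's origin and its history in culture cannot be told apart. Total RNA was hybridised to Affymetrix Mouse Genome 430 2.0 arrays.

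HOX genes encode homeodomain transcription factors that give cells a position along the body axis. They lie in clusters in which the order of the genes follows the order of their expression domains: low paralogue numbers act towards the head, high numbers towards the tail and the ends of the limbs. Fibroblasts keep much of the HOX pattern of the body site they came from, even in culture. HOX proteins bind DNA together with PBX and MEIS proteins, Polycomb proteins keep HOX clusters silent outside their domains, and Trithorax proteins keep them active.

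Values are MAS5 signals in arbitrary units, scaled so that the 4 arrays share a common trimmed mean. The dim level was set at a signal of 17.3, below which 40% of the scaled signals lay, and is no detection limit of the arrays. Signals of different probe sets depend on their probes as well as on the transcript, so values were compared between lines and not between genes. NIH3T3 replicate 2 was brighter as deposited than the other arrays, with a trimmed mean 1.55 times that of NIH3T3 replicate 1. Replicates correlated across probe sets with r = 0.97 in each line, against 0.90 between lines, as a description of the arrays. The labels do not tell separate cultures from repeat arrays, so a p-value here speaks of the spread among these samples alone, which may be technical. Of 12 fibroblast markers, 9 lay above the dim level on both L929 arrays and 11 on both NIH3T3 arrays. Vim, Col1a2 and Col3a1 were bright in both lines. Of the 12, however, 5 were called lower in L929 (41.7%, against 11.2% of all genes) and 1 higher, Pdgfrb. The lower ones were Dcn (-6.44), Thy1 (-6.15), Lum (-4.72), Pdgfra (-2.44) and Fn1 (-1.26), all genes of matrix or fibroblast surface, although the probe sets of Dcn ran from -6.44 to 0.09. Thy1 measured 18.0 and 30.0 in L929 and 2193 and 2253 in NIH3T3. The part of these markers in the HOX results was not tested. Of the 8 epithelial markers 3 were above the level on both L929 arrays and 4 on both NIH3T3 arrays, with summed signals of 167 to 174 and 183 to 200. For the 8 haematopoietic markers these counts were 4 and 3 (sums of about 207 and of 210 to 248), and for the 7 endothelial markers 1 and 0 (81.9 to 99.9 and 72.1 to 101). The 6 skeletal muscle markers summed to 441 to 497 in L929 and 164 to 179 in NIH3T3. That excess lay mostly in Des and Acta1, although the 2 probe sets of Des ran from 0.09 to 2.28. Myod1 measured 19.2 and 34.3 in L929 and 7.05 and 16.5 in NIH3T3, and was not called (0.82). Ckm stood at -0.35, and Myog and Myf5 were dim on all 4 arrays. The part of the muscle markers in the HOX results was not tested.

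Most HOX genes that differed between the lines were higher in L929. The genes called higher lay in 3 runs, Hoxa9 and Hoxa10, Hoxb2 to Hoxb6 (with Hoxb4 not called) and Hoxc6 to Hoxc10, together with Hoxb13 and Hoxd9. The limma fit ran over all probe sets, each gene stood at its brightest probe set, and a call needed an adjusted p (Benjamini-Hochberg) below 0.05 and more than 1.5-fold. Of 33 HOX genes, 12 were called higher and 1 lower in L929, and 20 were not called. Among all 18193 genes, 11.0% were called higher and 11.2% lower, so the share of HOX genes called higher, 36.4%, was above the background and the share called lower, 3.03%, below it. The median log2 difference of the 33 HOX genes was 0.10, against 0.02 over all genes, because most members that were not called lay near 0. Both L929 arrays lay above both NIH3T3 arrays for 15 HOX genes (31.6% of all genes) and below them for 9 (29.8% of all genes). Among those 9, Hoxb1, Hoxc13, Hoxd10 and Hoxd13 were dim on all 4 arrays.

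**Figure D1:**
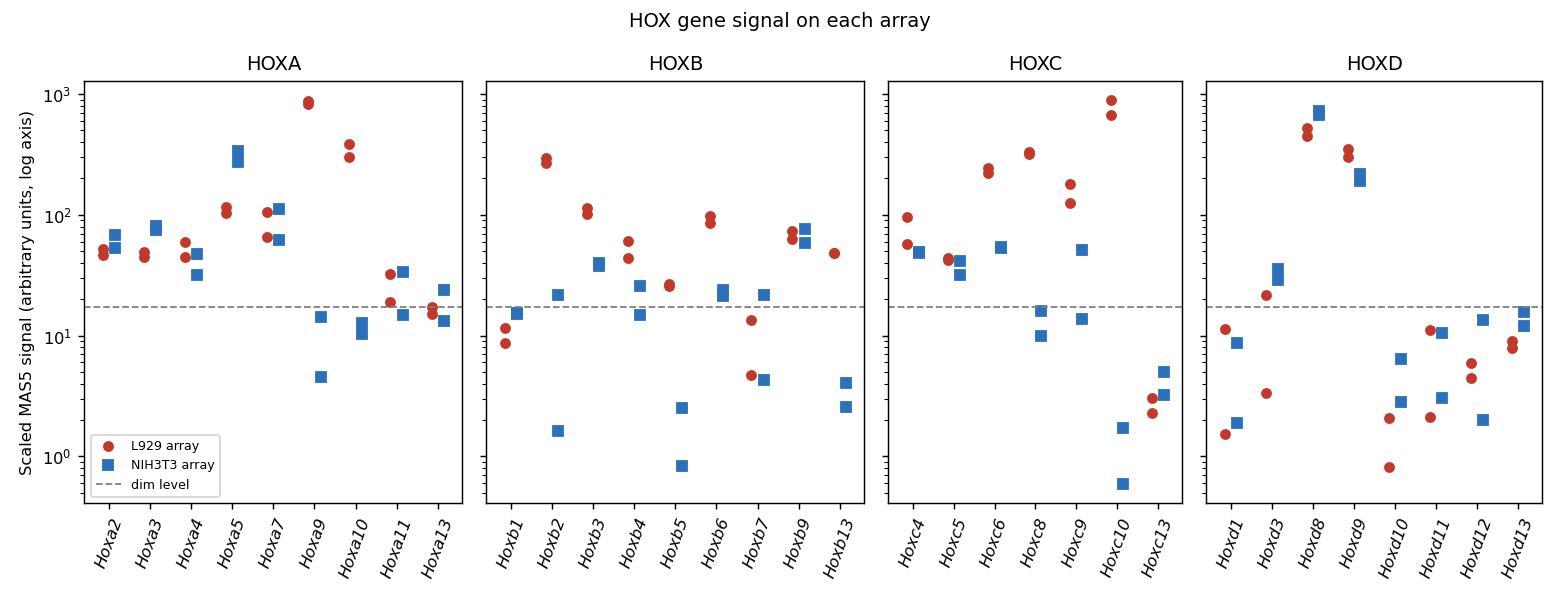
Scaled MAS5 signal of the brightest probe set of each HOX gene on every array, on a log axis, with genes in order of paralogue number within clusters A to D. Circles are the L929 arrays, squares the NIH3T3 arrays, and the dashed line is the dim level of 17.3. Wide separations are seen for Hoxa9, Hoxa10, Hoxb2, Hoxc8 and Hoxc10, while Hoxd10 to Hoxd13 lie below the level on all 4 arrays.

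More HOX genes lay above the dim level in L929 than in NIH3T3. Both arrays lay above it for 23 of the 33 genes in L929 and for 14 in NIH3T3, and 13 genes were above it in both lines. Over all 18193 genes the numbers were alike in the lines, 11414 in L929 and 11505 in NIH3T3. These counts rest on the brightest probe set of each gene, and the dimmer Hoxa9 probe set was above the level in NIH3T3 too. Hoxd3 was the gene above it on both arrays in NIH3T3 but not in L929. Below the level on all 4 arrays were Hoxb1, Hoxc13, Hoxd1, Hoxd10, Hoxd11, Hoxd12 and Hoxd13, 7 genes of which none was called.

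The HOXA cluster, on chromosome 6, held calls in both directions, with Hoxa5 lower and Hoxa9 and Hoxa10 higher in L929. Its front part, Hoxa2 to Hoxa7, held signal in both lines and no gene called higher in L929, whereas Hoxa9 and Hoxa10 were higher in L929. Hoxa5, which is known from the patterning of the lung and the neck region, measured 104 and 117 in L929 and 341 and 276 in NIH3T3. Both L929 arrays lay below both NIH3T3 arrays, and the log2 difference was -1.41 (SE 0.14, limma adjusted p = 6.3e-04), 2.66-fold lower in L929. The other Hoxa5 probe set gave -0.56 and was not called (limma adjusted p = 0.0575), so the lower call rests on 1 probe set. Hoxa9, which acts in limb patterning and in blood progenitors, measured 870 and 834 in L929 and 14.3 and 4.54 in NIH3T3. The groups did not overlap, NIH3T3 was dim on both arrays, and the difference was at least 49.4-fold (log2 difference 5.68, SE 0.26, adjusted p = 1.8e-05). A dimmer Hoxa9 probe set gave a smaller difference, with NIH3T3 above the dim level: 296 and 286 against 38.8 and 28.6, 7.22-fold (2.85, adjusted p = 6.1e-05). Hoxa10, which patterns the lumbar skeleton and the uterus, measured 387 and 304 against 12.7 and 10.4, at least 19.9-fold higher in L929 (4.17, SE 0.20, adjusted p = 2.3e-05). "At least" marks a bound, in which the brighter line's mean of log2 signals was set against the dim level because the other line was dim on both arrays.

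The 250 bases upstream of the start sites of Hoxa5, Hoxa9 and Hoxa10 are printed here for their sequence context. CpG dinucleotides are where mammalian DNA is methylated, and promoters rich in them are typical targets of Polycomb and Trithorax complexes. The windows are from RefSeq on GRCm38.p6, each on the minus strand, at chr6:52204588-52204837 for Hoxa5, chr6:52227371-52227620 for Hoxa9 and chr6:52240855-52241104 for the outermost start of Hoxa10. They are shown because the 3 genes are those called in HOXA, and capitals mark each CpG:
Hoxa5: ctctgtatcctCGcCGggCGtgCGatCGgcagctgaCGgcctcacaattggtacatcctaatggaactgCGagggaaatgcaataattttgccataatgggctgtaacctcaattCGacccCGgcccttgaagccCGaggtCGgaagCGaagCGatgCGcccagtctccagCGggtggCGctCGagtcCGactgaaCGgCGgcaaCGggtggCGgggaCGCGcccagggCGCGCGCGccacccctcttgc
Hoxa9: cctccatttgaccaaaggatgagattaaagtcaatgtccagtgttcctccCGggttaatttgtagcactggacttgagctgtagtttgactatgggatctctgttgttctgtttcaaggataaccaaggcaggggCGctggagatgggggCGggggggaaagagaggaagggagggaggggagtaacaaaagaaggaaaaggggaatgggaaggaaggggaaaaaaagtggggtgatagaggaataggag
Hoxa10: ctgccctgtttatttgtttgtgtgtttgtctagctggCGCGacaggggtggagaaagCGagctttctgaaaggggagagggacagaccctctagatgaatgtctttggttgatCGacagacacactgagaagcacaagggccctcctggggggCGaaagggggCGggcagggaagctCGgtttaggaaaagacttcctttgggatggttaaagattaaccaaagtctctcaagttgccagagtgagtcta

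The Hoxa5 window holds 28 CpG dinucleotides, the Hoxa9 window 3 and this Hoxa10 window 7, while a window at a start inside Hoxa10 holds 20. The windows of the uncalled Hoxa2, Hoxa3, Hoxa7, Hoxa11 and Hoxa13 hold 6, 18, 7, 13 and 35. Whether CpG content goes with the calls was not tested. RefSeq windows were matched for 22 of the 38 HOX genes, with 24 start sites in all, and held a median of 12.5 CpG (2 to 35), against 6 over all 32841 windows. A search on both strands found TATAAA in 4 of the 24 (16.7%, against 12.4% of all windows), CCAAT in 14 (58.3% against 33.9%) and TGATTNAT, a form of the site bound by PBX with HOX proteins, in 2 (8.33% against 2.83%). Among the printed windows the match was CCAAT in that of Hoxa5. These are descriptions of letters in a window, and the arrays say nothing of methylation or of binding there.

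The other HOXA genes were not called. Hoxa3, which shapes the thymus and the neck, measured 48.8 and 44.6 in L929 and 74.5 and 81.4 in NIH3T3, without overlap (log2 difference -0.65, adjusted p = 0.072). It passed the threshold when dim probe sets were left out of the fit (adjusted p = 0.0408 with a filter on the mean of the 4 arrays, within a range of 0.0408 to 0.308 over the alternatives). Hoxa2, a regulator of hindbrain and neural crest identity, differed by -0.26, Hoxa4 by 0.35 and Hoxa7 by -0.01. The arrays of the lines overlapped for Hoxa4 and Hoxa7, and the sign of Hoxa7 turned with the scaling and with the arrays left out. Hoxa11, a gene of the forearm and the kidney, stood at 32.1 and 19.1 against 14.7 and 33.4, and Hoxa13, a gene of the hand, foot and hindgut, at 17.4 and 15.05 against 13.3 and 23.9. Both therefore lay near the dim level in both lines, just behind the bright Hoxa10 signal of L929.

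**Figure D2:**
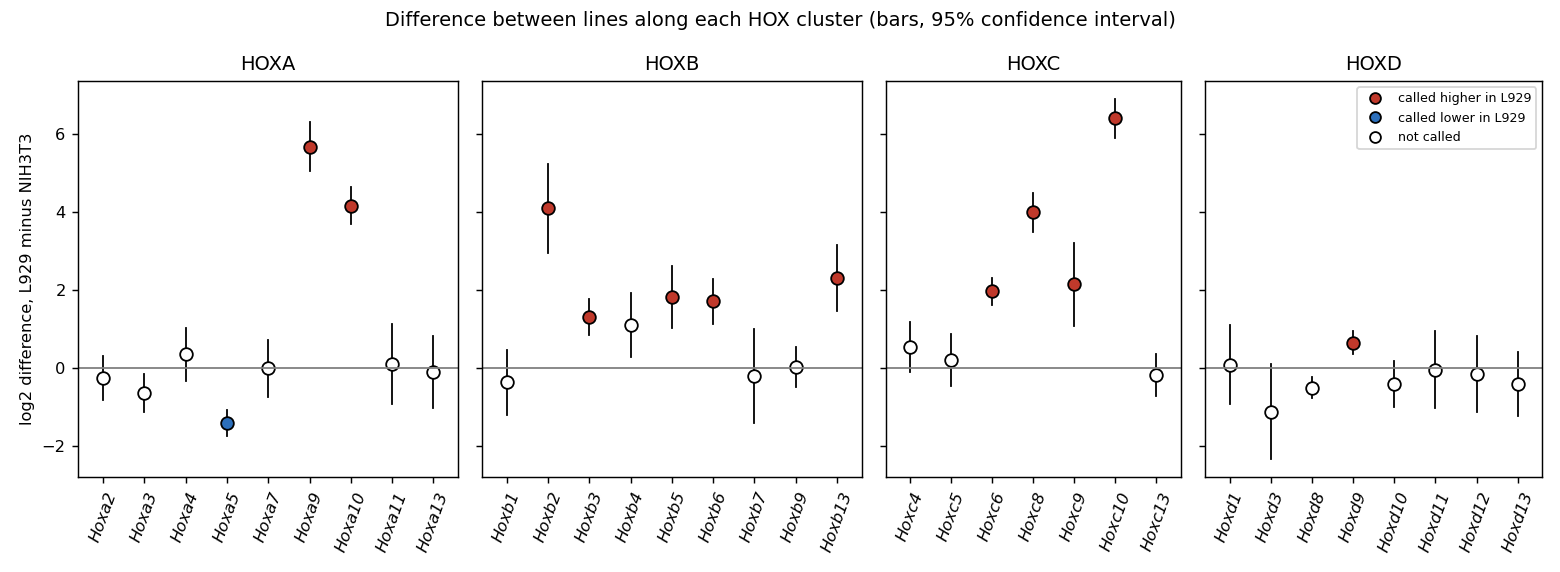
Log2 difference between L929 and NIH3T3 for the brightest probe set of each HOX gene, in order of paralogue number within each cluster, with bars for the 95% confidence interval of the limma fit. Filled circles are called genes: 2 higher in HOXA, 5 in HOXB, 4 in HOXC and 1 in HOXD, and 1 lower, Hoxa5.

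HOXB, on chromosome 11, was higher in L929 over much of its front part and at its far end. Its share of genes called higher was 55.6%, against 11.0% of all genes. Of 9 genes, 5 were called higher and 0 lower by limma, and 0 were lower also at an unadjusted p under 0.05 or in any of the 13 alternative fits; the median log2 difference was 1.31. Hoxb2, a hindbrain gene, measured 271 and 298 in L929 and 21.9 and 1.62 in NIH3T3. Only 1 of the 2 NIH3T3 arrays lay above the dim level, and the line's mean lay below it, so no fold is given (log2 difference 4.10, SE 0.48, adjusted p = 0.0012). The size rests on which NIH3T3 array is used, at 4.92 without NIH3T3 replicate 1 and 3.29 without NIH3T3 replicate 2, and was called either way. Hoxb3, also a gene of the hindbrain and neck, measured 101 and 115 against 39.9 and 37.5, 2.48-fold higher in L929 (1.31, SE 0.20, adjusted p = 0.0037). Hoxb6 measured 86.3 and 98.2 against 23.8 and 21.3, 3.28-fold higher (1.71, SE 0.25, adjusted p = 0.0029). Neither call held on the values as deposited without scaling, where the differences were 1.05 (adjusted p = 0.199, in a range of 0.0012 to 0.199) and 1.47 (0.0522, in a range of 6.2e-04 to 0.0522).

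Hoxb5 and Hoxb13 were modest in L929 and dim in NIH3T3. Hoxb5, a gene of the gut wall and the shoulder level, measured 26.8 and 25.5 in L929 against 2.49 and 0.833 in NIH3T3. That is at least 1.52-fold higher (log2 difference 1.83, SE 0.34, adjusted p = 0.0091), a call lost without NIH3T3 replicate 2 (1.71, adjusted p = 0.0714, in a range of 0.0017 to 0.0714). Hoxb13, the most tailward gene of the cluster and a gene of the prostate and tail bud, measured 48.1 and 48.3 against 2.59 and 4.01, at least 2.79-fold higher (2.32, SE 0.36, adjusted p = 0.0042). Its call held in all 13 alternative fits. Hoxb13 lies apart from the rest of HOXB, with no HOXB gene of groups 10 to 12 in between.

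In the same cluster 4 genes were not called. Hoxb4, known for the expansion of blood stem cells, measured 44.2 and 60.9 against 14.9 and 25.9, without overlap, and missed the threshold (log2 difference 1.10, adjusted p = 0.0708). With quantile normalization or either filter on dim probe sets Hoxb4 was called higher, within a range of adjusted p from 0.0224 to 0.397. Hoxb9, a gene of the rib cage, was above the dim level on all 4 arrays at 58.4 to 76.7, and its lines overlapped (0.02, 95% confidence interval -0.49 to 0.53). Hoxb7 was dim on both L929 arrays and 1 NIH3T3 array, and Hoxb1, a hindbrain gene, was dim on all 4.

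HOXC, on chromosome 15, was higher in L929 over its middle part. Its share of genes called higher was 57.1%, against 11.0% of all genes. Of 7 genes, 4 were called higher and 0 lower by limma, with 0 lower at an unadjusted p under 0.05 and in the 13 alternative fits, and the median log2 difference was 1.97. Hoxc10, a gene of the lumbar level and the hindlimb, measured 673 and 890 in L929 and 0.591 and 1.71 in NIH3T3. It was at least 44.9-fold higher in L929 (log2 difference 6.42, SE 0.21, adjusted p = 4.1e-06). Hoxc8, which patterns the thorax, measured 332 and 318 against 10.01 and 16.1, at least 18.8-fold higher (4.0, SE 0.21, adjusted p = 3.0e-05). Both calls held in all 13 alternative fits, and NIH3T3 was dim on both arrays for both genes. The log2 difference of a gene dim in NIH3T3 depends on the offset added before log2: for Hoxc10 it was 8.54 with an offset of 1 and 4.6 with an offset of 32.

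Hoxc6 and Hoxc9 kept some signal in NIH3T3. Hoxc6, a gene of the upper thorax, measured 224 and 244 in L929 and 52.9 and 54.6 in NIH3T3, 3.92-fold higher (log2 difference 1.97, SE 0.14, adjusted p = 1.3e-04). Hoxc9, a gene of the thorax, measured 126 and 179 against 13.6 and 51.0, 4.43-fold higher, where the dim level was passed by 1 of the 2 NIH3T3 arrays (2.15, SE 0.45, adjusted p = 0.0152). The Hoxc9 arrays did not overlap, but the call was lost without L929 replicate 1 (2.38, adjusted p = 0.0554), L929 replicate 2 (1.91, adjusted p = 0.107) and with no variance trend (adjusted p = 0.0866), in a range of 7.6e-04 to 0.107. The value of Hoxc9 moved most with the NIH3T3 arrays: 1.43 without NIH3T3 replicate 1 and 2.88 without NIH3T3 replicate 2. Hoxc4 measured 57.4 and 95.6 against 47.9 and 49.1 (0.54, adjusted p = 0.237) and Hoxc5 measured 42.4 and 44.2 against 41.3 and 31.9 (0.21, adjusted p = 0.694). Both lie at the front of the cluster and were above the dim level on all 4 arrays at the brightest probe set. Of the other Hoxc5 probe sets, 1 was dim on all 4 arrays and 1 on both NIH3T3 arrays and 1 L929 array. Hoxc13, the hair and nail gene at the other end, was dim throughout at 2.27 to 4.96. At the brightest probe sets, the run of HOXC genes above the level on both L929 arrays was therefore Hoxc4 to Hoxc10 among the genes measured. In NIH3T3 the run was Hoxc4 to Hoxc6.

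HOXD, on chromosome 2, had the fewest calls of the 4 clusters. Its share of genes called higher, 12.5%, was near the 11.0% of all genes. Of 8 genes 1 was called higher and 0 lower by limma, 1 was lower at an unadjusted p under 0.05, and the median log2 difference was -0.28. Hoxd8, a gene of the trunk, was bright in both lines at 451 and 527 in L929 and 676 and 722 in NIH3T3. The L929 arrays were lower without overlap and the adjusted p was 0.020, but the difference of -0.51 (1.43-fold) stayed under the fold threshold. Its neighbour Hoxd9, a gene of the trunk and limb, measured 299 and 350 against 216 and 191, 1.57-fold higher in L929 (0.65, SE 0.13, adjusted p = 0.0116). That call was lost without L929 replicate 2 (0.54, adjusted p = 0.0872), without NIH3T3 replicate 2 (0.57, adjusted p = 0.0632), without scaling (0.37, adjusted p = 0.700) and with no variance trend (adjusted p = 0.109), in a range of 0.0050 to 0.700.

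The genes at the Hoxd13 end were dim in both lines, and Hoxd3 was above the dim level in NIH3T3. Hoxd3, a gene of the neck vertebrae, measured 3.38 and 21.8 in L929 and 35.5 and 28.7 in NIH3T3, without overlap (log2 difference -1.12, adjusted p = 0.204), and was not called. Hoxd10, Hoxd11, Hoxd12 and Hoxd13, which pattern the limb, had signals of 0.817 to 15.8 over both lines. Hoxd8 and Hoxd9 were thus the HOXD genes above the dim level on all 4 arrays.

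By position along the clusters, 2 of 7 anterior genes (paralogue groups 1 to 3, 28.6%) were called higher in L929, against 11.0% of all genes. So were 4 of 12 central genes (groups 4 to 8, 33.3%) and 6 of 14 posterior genes (groups 9 to 13, 42.9%). The medians were -0.26, 0.45 and 0.06, and Hoxa5 in the central class was the gene called lower. The posterior class was not uniform. In groups 9 and 10, 5 of 7 genes (71.4%) were called higher with a median of 2.15, the exceptions being Hoxb9 and Hoxd10. In groups 11 to 13, 1 of 7 was, Hoxb13, a share of 14.3% that is near the 11.0% of all genes, with a median of -0.11. This split of the posterior class was chosen after its values were seen and is given with no test. Paralogues of 1 group did not move alike: of group 9, Hoxa9, Hoxc9 and Hoxd9 were called higher while Hoxb9 overlapped between the lines, and of group 10, Hoxa10 and Hoxc10 were higher while Hoxd10 was dim in both. In group 5, Hoxa5 was lower, Hoxb5 higher and Hoxc5 not called.

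Over all 48 HOX probe sets, 14 were called higher and 1 lower, against 8.04% and 8.99% of all probe sets. Both L929 arrays lay above both NIH3T3 arrays on 20 of the 48 (27.3% of all probe sets) and below them on 12 (28.4%). Genes with several probe sets did not always give the same size. Those of Hoxa9 stood at 5.68 and 2.85. The other Hoxa10 probe set was dim on all 4 arrays. A further Hoxc6 probe set was called at 1.54 and the dimmest of its 3 was not (0.42). Of the 2 Hoxa5 probe sets, the other measured 136 and 185 against 222 and 253, a difference of the same sign that was not called (-0.56, adjusted p = 0.0575). It would stand for the gene if probe sets were ranked by mean log2 signal, and 0 HOX genes would then be called lower. Hoxd8 gave -0.51 on both of its probe sets. The 4 probe sets of Hoxa3 ran from -0.65 to 0.14, so they did not share a sign.

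**Figure D3:**
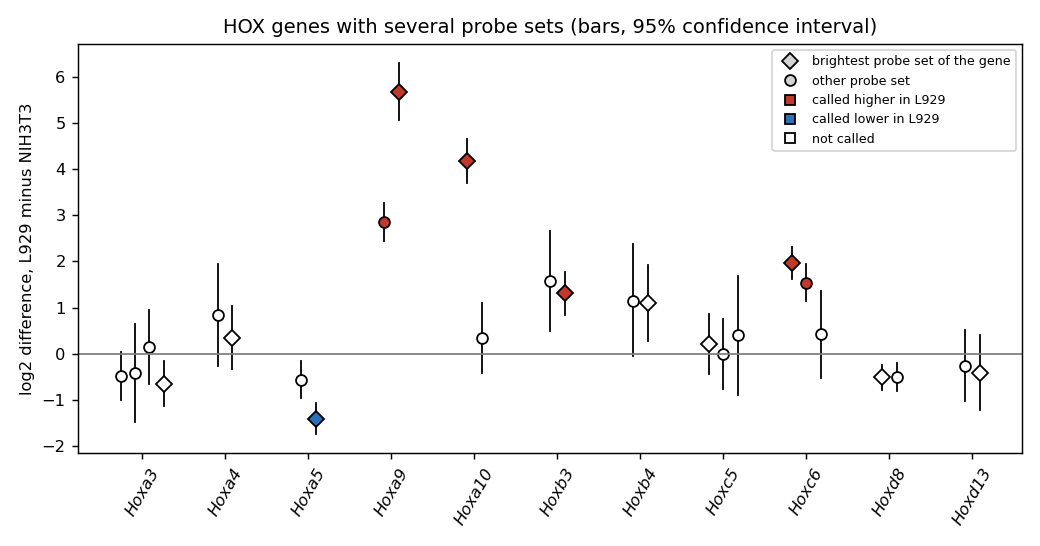
Log2 difference between L929 and NIH3T3 for every probe set of the 11 HOX genes that have several, with 95% confidence intervals of the limma fit. Diamonds are the brightest probe set of a gene, circles the others, and filled symbols are called. The probe sets of Hoxa9 (5.68 and 2.85) agree in sign but not in size, and those of Hoxd8 give the same value.

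Among TALE homeodomain genes, which include the PBX and MEIS partners of HOX proteins, the called genes were lower in L929. Of 10 measured TALE homeodomain genes (the PBX, MEIS, PKNOX and TGIF families), 0 were called higher by limma, 3 lower (30%, against 11.2% of all genes) and 7 not called, with a median log2 difference of -0.61; 0 were higher at an unadjusted p under 0.05 and in the 13 alternative fits. Pbx3, a HOX partner, measured 0.478 and 2.46 in L929 and 315 and 284 in NIH3T3. It was lower in L929 by at least 17.3-fold (-5.02, SE 0.26, adjusted p = 2.9e-05), and its other probe set gave -3.81. Pbx2 was 2.36-fold lower at 141 and 133 against 310 and 357 (adjusted p = 5.5e-04), although its 3 probe sets ran from -1.24 to 0.20. Tgif2, a repressor in TGF-beta signalling, was 7.21-fold lower with 1 of 2 L929 arrays above the dim level. Meis1 and Meis2, partners of posterior HOX proteins, stood at -0.55 (adjusted p = 0.0541) and -0.66 (adjusted p = 0.0654), and Tgif1 and Pbx4 were not called. Both L929 arrays lay above both NIH3T3 arrays for Pknox2 (0.68), Meis3 (0.46) and Pknox1 (0.12), of which none was called.

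Of 28 Polycomb genes 3 were called higher in L929 (10.7%, near the 11.0% of all genes) and 7 lower (25%, against 11.2%), with a median of -0.11. Rnf2, the ubiquitin ligase of Polycomb complex PRC1, was 2.45-fold lower at 298 and 313 against 732 and 791 (adjusted p = 1.8e-04), although its 5 probe sets ran from -1.33 to 0.19. Pcgf3, a PRC1 subunit, was 2.03-fold lower and Jarid2, a PRC2 accessory factor, 2.11-fold lower, while Pcgf5 and Phf19 were 2.87-fold and 2.90-fold higher. Jarid2 lost its call without scaling and without any 1 of the 4 arrays, and the 2 probe sets of Phf19 ran from -0.25 to 1.54. The core PRC2 genes Ezh2 (0.23), Suz12 (0.24) and Eed (0.56) were not called. Eed had a limma adjusted p of 0.0155 but stayed under the fold threshold at 1.47-fold, and its 2 probe sets ran from -0.85 to 0.56. Ezh1 was called 1.71-fold higher, although its 4 probe sets ran from -0.49 to 0.77. The Ezh1 call was lost without scaling and with no variance trend. Without scaling 1 Polycomb gene was higher and 4 lower, and with no variance trend 2 were higher and 3 lower. The lower count also fell when single arrays were left out. Of 17 Trithorax and H3K27 demethylase genes 2 were called higher (11.8%, near the background) and 0 lower by limma (median 0.08). At an unadjusted p under 0.05, 3 were lower (Men1, Kdm6b and Psip1). With quantile normalization or an offset of 1, 1 was called lower, and the count of 0 did not hold in every fit that left out an array. Ash2l, a subunit of H3K4 methyltransferases, was 1.61-fold higher, and Smarcb1, of the SWI/SNF remodeller, 1.58-fold higher. Each was lost in 3 of the 13 alternative fits, among them the fit without scaling, with 1 gene higher without L929 replicate 1 or L929 replicate 2. Kmt2a, the methyltransferase that maintains HOX expression, stood at -0.02.

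Of 16 upstream regulators 2 were called higher (12.5%), 1 lower (6.25%) and 13 not called (median -0.18), shares near or under those of all genes. Gmnn, which encodes geminin, was 2.06-fold higher, Rara, a retinoic acid receptor, 1.87-fold higher, and Zfp503, a zinc finger repressor, 2.85-fold lower in L929. Rara lost its call without L929 replicate 1, L929 replicate 2 or NIH3T3 replicate 2, and also without scaling and with no variance trend. Gmnn lost its call without scaling, where 0 of the 16 were higher, and Zfp503 lost its call with no variance trend. The caudal genes Cdx1, Cdx2 and Cdx4, activators of posterior HOX genes in the embryo, were not called. Cdx1 and Cdx4 were dim on all 4 arrays, and Cdx2 on both L929 arrays and 1 of the 2 NIH3T3 arrays.

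Among other transcription factors of position, calls lower in L929 outnumbered calls higher. Of 42 homeobox and T-box genes 4 were called higher (9.52%) and 13 lower (31%), against 11.0% and 11.2% of all genes (median -0.13). Prrx1 and Prrx2, homeobox genes of limb and face mesenchyme, were 16.05-fold and at least 19.5-fold lower: Prrx1 measured 172 and 165 against 3222 and 2483, and Prrx2 2.90 and 2.15 against 379 and 300. The 6 probe sets of Prrx1 ran from -4.0 to 0.01. Lhx9, a limb bud gene, was at least 6.06-fold lower. Dlx3, a gene of skin and bone, was at least 6.67-fold higher, and Msx1 and Six4 were 2.15-fold and 1.66-fold higher. The count of higher genes was 2 without L929 replicate 1 or NIH3T3 replicate 1, and 1 without scaling, with 11 lower.

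Among 22 measured protein-coding genes, up to 3 on either side of each cluster, 2 were called higher (9.09%) and 2 lower (9.09%), with a median log2 difference of 0.43. Both L929 arrays lay above both NIH3T3 arrays for 11 of the 22, against 31.6% of all genes, with log2 differences of 0.33 to 1.50. Ttll6, next to the Hoxb13 end of HOXB, measured 25.2 and 66.9 against 16.4 and 4.72 (1.50, adjusted p = 0.0994) and was not called. The genes flanking HOXA stood at -0.32 for Skap2 and 0.58 for Evx1. Evx1 overlapped between the lines, at 4.12 and 22.5 in L929 and 4.05 and 5.77 in NIH3T3. Farther out, Snx10 (0.44), Hibadh (0.55) and Tax1bp1 (0.49) were higher in L929 without overlap but not called, and Cbx3 stood at 0.02. Calcoco1, next to the Hoxc13 end of HOXC, was 2.53-fold lower in L929, and Lnpk, beyond the Hoxd13 end of HOXD, 2.50-fold lower. Atp5g2 was 1.84-fold and Snx11 1.54-fold higher, and both calls were lost without scaling and with no variance trend. The 3 probe sets of Lnpk ran from -1.32 to 0.03 and the 3 of Atp5g2 from -0.34 to 0.88. The higher count was 0 without L929 replicate 1 or L929 replicate 2, 5 without NIH3T3 replicate 1 and 1 without NIH3T3 replicate 2. Of the noncoding RNAs of the clusters 2 were measured: Hoxa11os was dim on all 4 arrays, and Hoxb5os, on the strand opposite Hoxb5, stood at 18.8 and 2.63 against 34.0 and 27.1 (-1.19, adjusted p = 0.169).

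**Figure D4:**
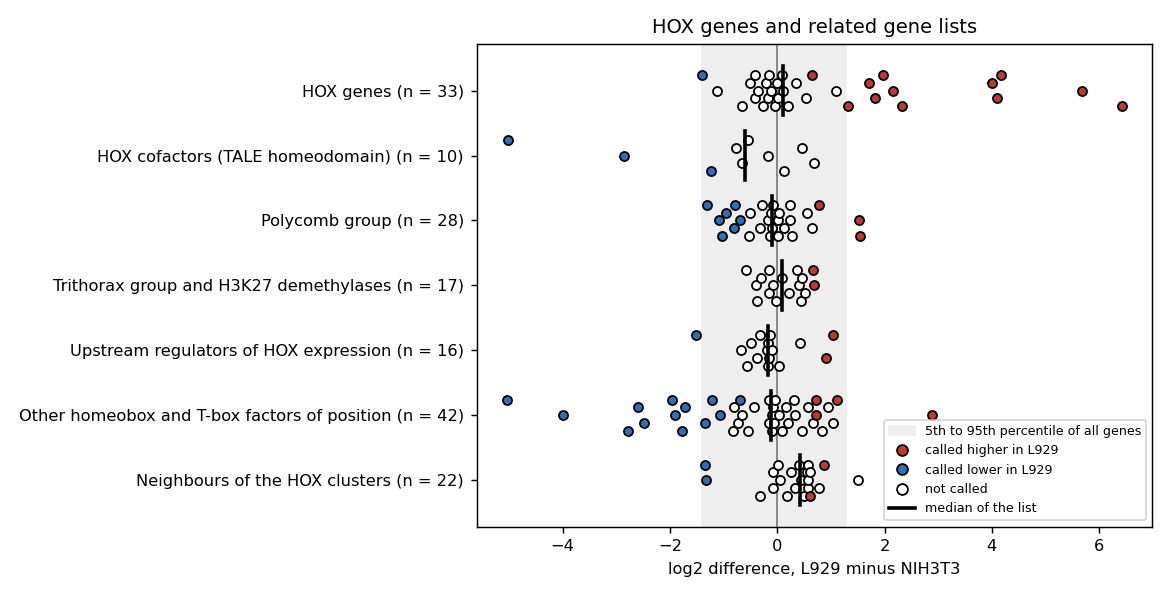
Log2 difference between L929 and NIH3T3 for HOX genes and 6 related gene lists, 1 point per gene at its brightest probe set, with vertical spread for legibility only. Black bars are medians and the grey band spans the 5th to the 95th percentile of all genes (-1.40 to 1.28). The called HOX genes lie mostly to the right of the band, while the called TALE homeodomain genes and most called position factors lie to the left of 0.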

How the data were processed

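RNA of 2 L929 and 2 NIH3T3 samples was measured on arrays. The deposited intensities are MAS5 signals per probe set, per the submitters' processing notes. For MAS5, neither version nor scaling target nor build is given in the sources used here. Samples were grouped by title. The values are linear, no detection call was used, and 64 control probe sets were left out.

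Of 45037 probe sets, 34945 had 1 gene symbol, 932 several and 9160 none. Arrays were scaled to a common mean trimmed by 2% at each end (factors 1.07, 1.14, 1.13 and 0.726). The 25th percentile, 8.01, was added before log2, so fold changes of dim genes are understated. No filter was applied, so that every member was tested. L929 was compared with NIH3T3 in limma 3.58.1 (lmFit, then eBayes with trend; R 4.3.3), with Benjamini-Hochberg adjustment over all probe sets, and the submitters' thresholds of 0.05 and 1.5-fold. The fit was first tested on simulated data, with 50 changes of each size among probe sets whose mean lay above the dim level. It recovered 24% of 1.5-fold, 60% of 2-fold and 98% of 4-fold changes, so small differences could be missed.

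The members and the gene lists were chosen with earlier results of these data known. Named are members above the dim level on both arrays of a line or called, and up to 3 called genes per direction of other lists, with further genes of those lists, chosen after their values were seen, named for context. A RefSeq gene table (GRCm38.p6) held the genes of 34741 probe sets and was used for names, chromosomes and gene order.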

Additional observations from a re-analysis of the deposited data

How the results depend on the processing

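Across 13 alternative fits, HOX genes called higher numbered 9 to 13 and HOX probe sets called higher 10 to 16. Without 1 array, 10 to 12 HOX genes were higher and 1 to 1 lower, and 12 to 14 HOX probe sets were higher and 1 to 3 lower, the 3 without L929 replicate 2. HOX genes lower, 1 as reported, numbered 2 with the filter on the mean of the 4 arrays and 2 with the filter on both arrays of at least 1 line, as did lower HOX probe sets (2 and 2), because Hoxa3 was then called among fewer tested probe sets. The count was 0 with the probe set of highest mean log2 signal, an alternative chosen after seeing the data. Over the 24 named genes and the fits that gave a value, 285 values kept sign and call, 10 lost a call, 5 gained one and 11 turned sign. Those that turned were uncalled genes, and the cause was not tested: without scaling Hoxa11 stood at -0.14, Hoxb9 at -0.24 and Hoxc5 at -0.03; with median scaling and quantile normalization Hoxa7 stood at 0.04 and 0.09. Without L929 replicate 1 Hoxa7 stood at 0.30 and Hoxa11 at -0.18, without NIH3T3 replicate 1 they stood at 0.37 and -0.33 with Hoxb9 at -0.15, and without L929 replicate 2 Hoxb9 stood at -0.07. Leaving out each array in turn gave -0.40 to 0.37 for Hoxa7, -0.33 to 0.54 for Hoxa11 and -0.15 to 0.20 for Hoxb9. Without scaling the median of all genes moved from 0.02 to -0.19 and the share of called probe sets that were higher from 47.2% to 28.4%. The replicate numbers did not pair the arrays (correlation of same-number deviations 0.0082), and with the replicate block 12 HOX genes were higher and 1 lower, and 15 HOX probe sets higher and 1 lower. With 2 arrays per line the number of arrays limits the precision.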

Other observations

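Probe sets whose annotation names a HOX gene together with its neighbour numbered 3 and were not used above. The probe set of Hoxb8 and Hoxb7 measured 50.1 and 46.8 in L929 and 4.51 and 15.8 in NIH3T3, at least 2.81-fold higher (log2 difference 1.71, SE 0.42, limma adjusted p = 0.0289), while the probe set of Hoxb7 alone differed by -0.20. A probe set of Hoxd4 and Hoxd3 measured 19.0 and 17.3 in L929 and 50.3 and 48.1 in NIH3T3, 2.18-fold lower in L929 (-1.13, SE 0.31, adjusted p = 0.0422). The other such probe set overlapped between the lines, at 3.27 and 26.7 against 17.3 and 19.6. Which of the named genes these signals belong to was not tested.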
